A study of Mus musculus with 12 samples.

Results

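The nuclear genes of oxidative phosphorylation were followed in whole lungs of 5-day-old mice. Members were the protein-coding rows of the count table whose symbols begin with Nduf followed by a, b, c, s or v, with Uqcr, with Cox4 to Cox8 or with Atp5, together with Sdha, Sdhb, Sdhc and Sdhd. This rule, which used names and no measured value, found 93 of 21950 protein-coding genes. Complex I contributed 44 members (7 core subunits, 29 accessory subunits and 8 assembly factors), complex II contributed 4, complex III contributed 8, complex IV contributed 20 and complex V contributed 15. The remaining 2, Atp5s and Atp5sl, carry names of ATP synthase but are not counted here as its subunits. The rule leaves out Cyc1, the cytochrome c1 subunit of complex III, and the subunits that the mitochondrial genome encodes.

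RNA had been sequenced from 12 lungs of C57BL/6J mice, with 4 groups of 3. Mice of WT PBS, numbered 3 to 5, and of WT LPS, numbered 9 to 11, carried both functional copies of Adm, the gene of the vasodilator peptide adrenomedullin, whereas the Adm+/- mice, numbered 6 to 8 in PBS and 1, 2 and 12 in LPS, carried a single one, so that the model lowers the gene rather than removing it. LPS from Escherichia coli was given intraperitoneally at 6 mg/kg once daily in 3 doses starting on day 3, PBS served as vehicle, and the lungs were removed 6 h after the last dose. Nothing in the labels says whether littermates were shared between groups, and p-values measure the spread between these mice.

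Oxidative phosphorylation takes place in the inner mitochondrial membrane. Complexes I and II pass electrons from NADH and succinate to ubiquinone, complex III passes them on to cytochrome c, complex IV hands them to oxygen, and complex V uses the resulting proton gradient to make ATP. Most subunits come from nuclear genes and are shared by all tissues, while a few subunits of complex IV exist as isoforms that are restricted to heart and skeletal muscle, testis or lung.

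Counts per library ranged from 22382535 to 38062873, and the members together took 0.449% to 0.533% of the protein-coding counts. Adm itself stood at 3.96, 7.09 and 4.57 CPM (counts scaled to library size) in WT PBS, 7.77, 8.15 and 4.46 in WT LPS, 4.58, 2.87 and 3.62 in Adm+/- PBS, and 3.74, 6.28 and 3.92 in Adm+/- LPS. The mean was lower in Adm+/- lungs under either treatment, but the groups overlapped, and the difference did not pass the test in PBS (log2 fold change -0.50 ± 0.32 SE, edgeR adjusted p = 0.999) or in LPS (-0.55 ± 0.31, adjusted p = 0.480). The libraries WT PBS 5 and Adm+/- PBS 6 stood apart from the rest. Gm26917, a noncoding RNA locus, took 16.6% and 13.3% of their counts against at most 7.4% elsewhere, and 8 lung fibroblast markers summed to 55882 and 34200 CPM in them against 16133 to 21230 in the other 10 libraries. Several results that rest on these libraries are therefore also given without them. The range and median of the genotype comparison in PBS are given with both only. The labels give no sex. RNA of 4 Y-linked genes (Kdm5d, Eif2s3y, Uty and Ddx3y) summed to 2344 to 6782 counts in WT PBS 5, WT LPS 11 and Adm+/- PBS 8 and to at most 10 in the other 9 libraries, while Xist, the RNA of the inactive X chromosome, had 81 to 213 counts in those 3 and 14194 to 43033 in the other 9. Adm+/- LPS held no library with Y-linked RNA and each other group held 1, so sex and group are partly confounded in every comparison that uses Adm+/- LPS. Fits with a term for Y-linked RNA, and without those 3 libraries, are given where they change a call. Leaving those 3 out also removes the deviating WT PBS 5 and makes every group but Adm+/- LPS smaller. The effects of sex, of that library and of group size cannot be told apart there. Lung identity was plain, with 10 type II pneumocyte markers summing to 13817 to 17610 CPM, and 12 neutrophil markers stood at 40.8 to 186 CPM in the PBS and 1607 to 2966 CPM in the LPS libraries. In bulk lung, fewer cells of a type and less RNA per cell cannot be told apart.

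The summed level of all 93 members lay between 4544 and 5605 CPM. In WT lungs it was 4775, 4778 and 5605 in PBS and 4805, 5217 and 4544 in LPS. The Adm+/- sums were 5378, 5098 and 4632 in PBS and 4605, 4769 and 4691 in LPS. The highest sums came from WT PBS 5 and Adm+/- PBS 6, and the LPS and PBS groups of each genotype overlapped.

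Scaled to exon length, the members spanned a wide range of levels. Cox6a1, a structural subunit of complex IV, had the highest mean at 194 CPM per kilobase. It was followed by Atp5a1, the alpha subunit of the catalytic head of ATP synthase, at 146 CPM per kilobase. Without WT PBS 5 and Adm+/- PBS 6 these means were 154 for Cox6a1 and 141 for Atp5a1, and the ranges of the other 10 libraries overlapped (126 to 183 and 134 to 161). Within complex I the accessory subunit Ndufa2 was highest at 99.7 CPM per kilobase, within complex II the flavoprotein Sdha at 35.4, and within complex III the small subunit Uqcr10 at 80.1. Without the pair Ndufa2 stood at 85.5 and Uqcr10 at 76.1, and in complex II the membrane anchor Sdhd, at 37.2, was above Sdha, at 35.4. The lead of Cox6a1 was not uniform, since its level ran from 126 CPM per kilobase to 406 in WT PBS 5, while Atp5a1 ran from 134 to 191. The median member of complex I stood at 16.0 CPM per kilobase, against 33.1 for complex II, 35.3 for complex III, 28.8 for complex IV and 29.3 for complex V. Cox8c, an isoform of testis, had 0 counts in every library, and Cox7b2 had at most 2, so neither was tested.

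Promoters are shown for Cox6a1 and Cox8a, whose products are used in most tissues, for Cox8b, the muscle counterpart of Cox8a, and for Ndufb3, the member that passed the threshold in both genotypes. The windows run from 250 bases before to 50 bases after the annotated start and were taken from RefSeq on GRCm38.p6. Such a window was found for 74 of the 93 members. Capitals mark matches on either strand. The first motif is GCGCATGC, the core of the site for nuclear respiratory factor 1 (NRF1). CCGGAAG is the core of ETS sites, which GABPA binds. YY1 sites were searched as ATGGCGGC. The TATA box was searched as TATAAAA. The window of Cox6a1 is chr5:115348909-115349208 on the minus strand, that of Cox8a is chr19:7217567-7217866 on the minus strand, that of Cox8b is chr7:140900397-140900696 on the minus strand and that of Ndufb3 is chr1:58586147-58586446 on the plus strand.
Cox6a1: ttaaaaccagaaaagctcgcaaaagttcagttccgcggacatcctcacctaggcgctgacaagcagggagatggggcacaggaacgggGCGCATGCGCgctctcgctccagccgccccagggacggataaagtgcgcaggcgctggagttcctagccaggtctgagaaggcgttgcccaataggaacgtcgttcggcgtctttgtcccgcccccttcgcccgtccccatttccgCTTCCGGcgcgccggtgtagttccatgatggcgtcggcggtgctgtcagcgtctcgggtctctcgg
Cox8a: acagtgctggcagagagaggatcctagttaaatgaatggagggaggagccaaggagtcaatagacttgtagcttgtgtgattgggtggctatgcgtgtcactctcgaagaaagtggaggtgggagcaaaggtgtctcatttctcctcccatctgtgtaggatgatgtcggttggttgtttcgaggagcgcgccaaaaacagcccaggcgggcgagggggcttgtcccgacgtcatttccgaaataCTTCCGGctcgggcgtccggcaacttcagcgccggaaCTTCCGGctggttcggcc
Cox8b: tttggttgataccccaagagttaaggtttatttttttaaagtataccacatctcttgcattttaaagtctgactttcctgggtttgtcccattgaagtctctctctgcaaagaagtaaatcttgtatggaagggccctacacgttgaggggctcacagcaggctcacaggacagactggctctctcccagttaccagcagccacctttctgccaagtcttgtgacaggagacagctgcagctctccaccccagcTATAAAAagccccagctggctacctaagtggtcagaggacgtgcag
Ndufb3: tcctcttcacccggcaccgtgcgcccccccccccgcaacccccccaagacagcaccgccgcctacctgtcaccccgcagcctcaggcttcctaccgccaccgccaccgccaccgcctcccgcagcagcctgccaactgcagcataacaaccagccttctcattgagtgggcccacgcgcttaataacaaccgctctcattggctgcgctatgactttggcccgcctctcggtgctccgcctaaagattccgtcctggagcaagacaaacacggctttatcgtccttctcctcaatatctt
In Cox6a1 the first run of capitals holds NRF1 matches on both strands that overlap each other, and the other run matches the ETS core on the opposite strand. Cox8a holds a pair of ETS matches on the opposite strand, Cox8b holds the TATA letters, and Ndufb3 holds none of the searched letters. Over the members, the NRF1 letters stood in 12 of 74 windows (16.2%, against 3.05% of all 27025 promoters), the ETS letters in 18 (24.3%, against 9.93%), the YY1 letters in 7 (9.46%, against 2.61%) and the TATA letters in 3 (4.05%, against 6.39%). A match describes the sequence and is not evidence of binding.

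**Figure D1:**
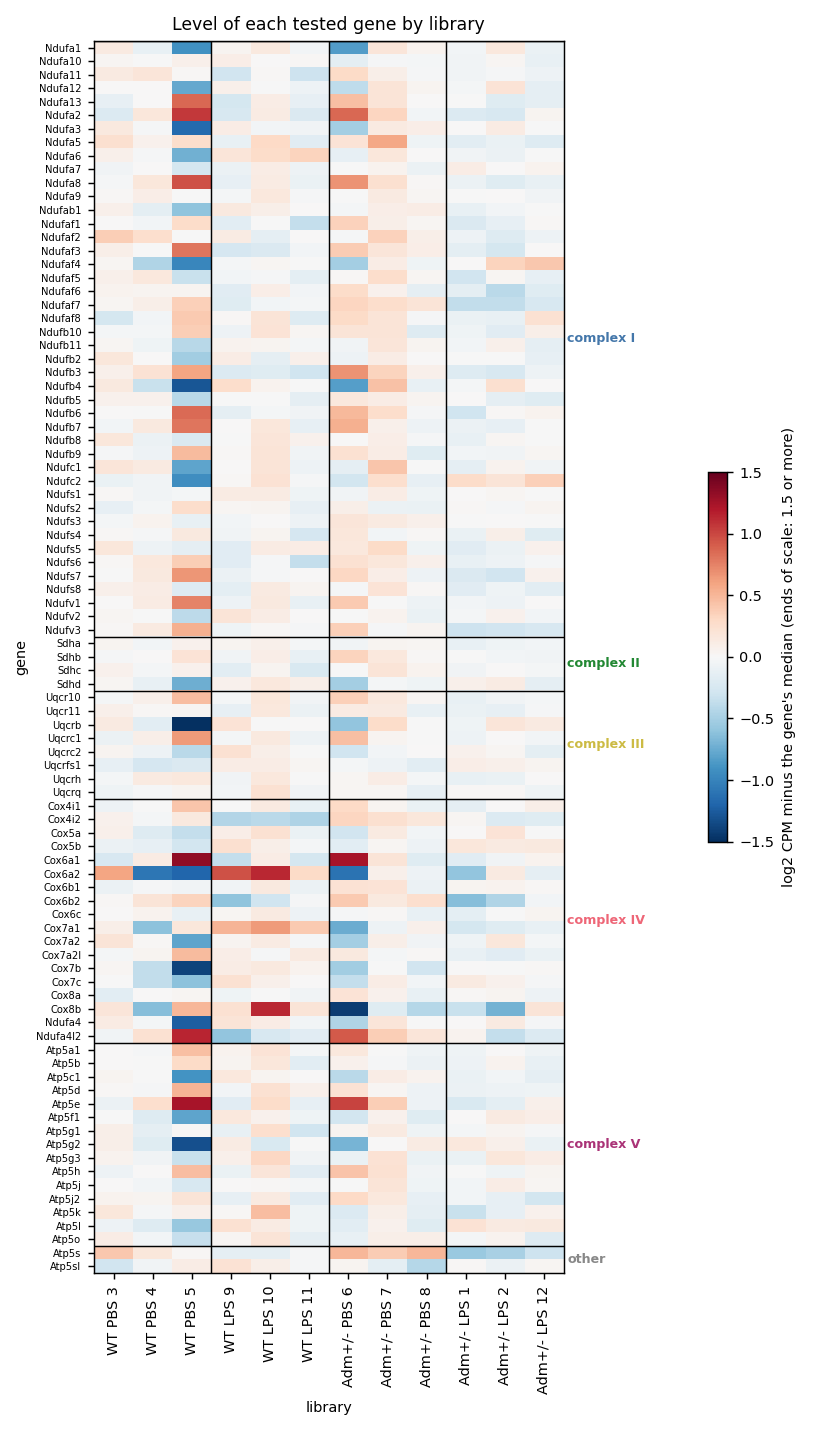
Level of each of the 91 tested members in the 12 libraries, as log2 CPM minus the median of that gene over all libraries, with genes in rows by complex and libraries in columns by group. The columns WT PBS 5 and Adm+/- PBS 6 carry the strongest colors in both directions, while most rows differ little between the remaining columns.

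Of the 93 members, 91 passed the filter on low counts and were tested. A gene was past the threshold at an adjusted p below 0.05, from edgeR's quasi-likelihood test over 15885 genes, together with an absolute log2 fold change above 0.5. Few members reached it after LPS. In WT lungs 0 members were past the threshold upward, where 10.5% of all tested genes were, and 2 were past it downward, where 7.09% of all tested genes were. In Adm+/- lungs 0 members were past it upward, against 12.8% of all tested genes, and 4 were past it downward, against 12.2%. For the upward direction DESeq2 and limma-voom also placed 0 members past the threshold in either genotype, where DESeq2 placed 12.1% of all tested genes in WT and 14% in Adm+/- lungs and limma-voom 10.1% and 13%, and the unadjusted p in edgeR was below 0.05 upward for 7 members in WT (7.69%, against 18.7% of all tested genes) and 0 in Adm+/- lungs (against 20.2%). In either direction it was below 0.05 for 14 members in WT, where 36.7% of all tested genes were, and for 8 in Adm+/- lungs, where 41.8% were. Without WT PBS 3, however, 4 members were past it upward in WT (Cox6a2, Cox7b, Cox7c and Ndufa6), where 10.1% of all tested genes were. With a term for Y-linked RNA, 2 members were past it downward in WT and 3 in Adm+/- lungs, against 7.06% and 10.3% of all tested genes. Without the 3 libraries that hold such RNA, 0 were past it downward in WT by edgeR, where 5.48% of all tested genes were and 1 member had an adjusted p below 0.05, and 10 were past it in Adm+/- lungs, against 14.2%. The Adm+/- members at an adjusted p below 0.05 downward were then 19, against 18.4% of all tested genes. The 3 libraries left out here include the deviating WT PBS 5. Without a fold limit, the adjusted p was below 0.05 for 1 member upward and 2 downward in WT (all tested genes 11.9% and 9.46%, together 21.3%), and for 0 upward and 6 downward in Adm+/- lungs (all tested genes 15.5% and 15.4%, together 30.9%). In both directions together, 17.6% of all tested genes were past the threshold in WT and 25% in Adm+/- lungs. In all, 84 of 91 members did not reach an adjusted p below 0.05 in either genotype, and 5 were past the threshold in at least 1 of them.

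The median log2 fold change of the members was -0.002 in WT and -0.09 in Adm+/- lungs, against 0.009 and -0.01 for all tested genes. Half-widths of the 95% confidence intervals had a median of 0.327 in WT and 0.326 in Adm+/- lungs, and for 42 and 45 members the whole interval lay between -0.5 and 0.5. For the rest, a missing call does not show an unchanged gene. The LPS and PBS values did not overlap for 9 members upward and 10 downward in WT (9.9% and 11%, against 18.3% and 17.9% of all tested genes) and for 3 upward and 22 downward in Adm+/- lungs (3.3% and 24.2%, against 26.6% and 27.1%). Across the 91 members the responses of the genotypes, which share no library, had a Pearson correlation of 0.833. Without WT PBS 5 and Adm+/- PBS 6 it was 0.572. Genes are not independent replicates, and those libraries deviated in the same direction for most members, as described further on.

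**Figure D2:**
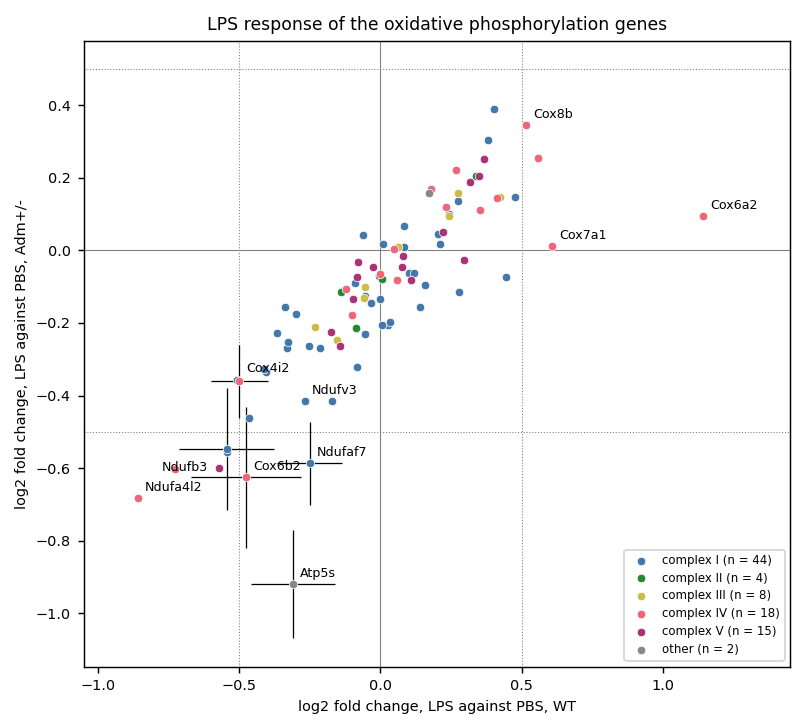
Log2 fold change of LPS against PBS in WT (horizontal axis) and Adm+/- lungs (vertical axis) for the 91 tested members, colored by complex, with dotted lines at 0.5 in either direction and black bars for the SE of members past the threshold in at least 1 genotype. Most points lie between the dotted lines, and Ndufb3, Cox4i2, Ndufaf7, Cox6b2 and Atp5s carry bars.

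In complex I, none of the 7 core subunits, which hold the flavin and iron-sulfur clusters that carry electrons, passed edgeR's test after LPS. Of these, 0 had an unadjusted p below 0.05 in either genotype, where 36.7% of all tested genes did in WT and 41.8% in Adm+/- lungs. The log2 fold changes of the core subunits ran from -0.34 to 0.21 in WT and from -0.25 to 0.04 in Adm+/- lungs. For Ndufs1, the largest of the iron-sulfur subunits, the difference was 0.08 in WT (adjusted p = 0.508) and 0.009 in Adm+/- lungs (adjusted p = 0.950). Among the 29 accessory subunits, 1 (3.45%) was past the threshold downward in each genotype, against 7.09% of all tested genes in WT and 12.2% in Adm+/- lungs. It was Ndufb3 both times. The 8 assembly factors had medians of -0.15 in WT and -0.27 in Adm+/- lungs, with 7 of 8 negative in each, where 49.1% and 51.3% of all tested genes were, but only Ndufaf7 was past the threshold, and only in Adm+/- lungs.

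Ndufb3 is an accessory subunit of the membrane arm of complex I and lies at chr1:58586384-58595964 of mm10. It stood at 20.7, 22.8 and 29.5 CPM in WT PBS and 16.9, 17.3 and 15.9 in WT LPS. The Adm+/- lungs gave 31.2, 24.8 and 20.6 CPM in PBS and 17.1, 16.6 and 18.6 in LPS. Every LPS library was below every PBS library of its genotype, and the highest values came from WT PBS 5 and Adm+/- PBS 6. Expression fell in WT (log2 fold change -0.54 ± 0.17 SE, adjusted p = 0.0399) and in Adm+/- lungs (-0.55 ± 0.17, adjusted p = 0.0285). Without those PBS libraries the adjusted p was 0.0375 and 0.0259, but the differences were -0.39 and -0.38 and no longer past the fold limit. The WT call also depended on single libraries, and the adjusted p lay between 0.053 and 0.110 when WT PBS 4 or 5, WT LPS 9, 10 or 11, Adm+/- PBS 7, or Adm+/- LPS 1, 2 or 12 was left out. The Adm+/- adjusted p lay between 0.0567 and 0.108 without Adm+/- PBS 6 or 7, or Adm+/- LPS 1, 2 or 12. Without the libraries with Y-linked RNA, which include WT PBS 5, Ndufb3 differed by -0.36 in WT (adjusted p = 0.113) and by -0.69 in Adm+/- lungs (adjusted p = 0.00376).

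Ndufaf7 encodes a mitochondrial methyltransferase needed to assemble complex I and lies at chr17:78937136-78948052. The Adm+/- lungs gave 25.1, 24.1 and 23.0 CPM in PBS and 15.5, 15.5 and 17.0 in LPS. The groups were well separated, and the gene fell by 0.59 on the log2 scale (SE 0.11, adjusted p = 0.00288). It stayed past the threshold in each of 12 fits that left out 1 library and without the pair of deviating libraries (-0.56, adjusted p = 0.00204). Ndufaf7 was also past it with a term for Y-linked RNA (-0.56, adjusted p = 0.00626) and without the libraries that hold it (-0.63, adjusted p = 0.00255). In WT lungs the values were 20.6, 21.4 and 25.8 CPM in PBS and 17.8, 19.5 and 19.7 in LPS, also without overlap, with a log2 difference of -0.25 that did not pass the test (adjusted p = 0.138). The responses of the genotypes were not shown to differ (-0.34 ± 0.16, adjusted p = 0.666). Ndufv3, an accessory subunit of the NADH-oxidizing module that was named after its values were seen, fell by 0.42 in Adm+/- lungs (adjusted p = 0.0435), which is within the fold limit.

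Complexes II and III had no member past the threshold, where 17.6% of all tested genes were in WT and 25% in Adm+/- lungs. The 4 subunits of succinate dehydrogenase had log2 fold changes from -0.14 to 0.34 in WT and from -0.21 to 0.20 in Adm+/- lungs, and Sdha stayed between 135 and 154 CPM in all 12 libraries. Uqcrfs1, the Rieske iron-sulfur protein of complex III at chr13:30540308-30545362, stood at 52.7, 48.3 and 49.5 CPM in WT PBS and 61.8, 61.9 and 58.5 in WT LPS. All LPS values were above all PBS values, and it rose by 0.27 (SE 0.08, adjusted p = 0.0341), which made it the single member with an adjusted p below 0.05 upward. The adjusted p lay between 0.053 and 0.127 without WT PBS 4 or 5, WT LPS 9 or 10, Adm+/- PBS 7, or Adm+/- LPS 1, 2 or 12, and the difference was 0.07 (adjusted p = 0.611) with an offset for gene length and GC content. Without the libraries with Y-linked RNA the adjusted p of Uqcrfs1 was 0.0740. Uqcrfs1 in Adm+/- lungs stood at 56.3, 54.6 and 51.3 CPM in PBS and 61.3, 60.4 and 59.3 in LPS. The groups did not overlap there either, but the difference of 0.16 did not pass the test (adjusted p = 0.163).

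Complex V had 0 of 15 members past the threshold in either genotype in edgeR, where 17.6% and 25% of all tested genes were, and the unadjusted p was below 0.05 for 1 in WT and 0 in Adm+/- lungs, where it was for 36.7% and 41.8%. The 5 subunits of its catalytic head had median log2 fold changes of -0.08 in WT and -0.07 in Adm+/- lungs, and the 10 subunits of the stalk and membrane sector had 0.09 and -0.03. Atp5a1 stood at 442, 435 and 599 CPM in WT PBS and 457, 506 and 431 in WT LPS, and at 489, 439 and 422 in Adm+/- PBS and 421, 441 and 422 in Adm+/- LPS. The groups overlapped in both genotypes, and the highest value was that of WT PBS 5. The 95% interval of its log2 difference was -0.36 to 0.20 in WT and -0.35 to 0.20 in Adm+/- lungs.

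Atp5s, also known as factor B or Dmac2l, showed the largest fall among the tested members in Adm+/- lungs. It lies at chr12:69724950-69744660. In that genotype it stood at 7.36, 6.79 and 7.39 CPM in PBS and 3.51, 3.69 and 4.17 in LPS. The groups were far apart, and expression fell by 0.92 on the log2 scale (SE 0.15, adjusted p = 0.000935). Leaving out any single library kept it past the threshold, with values from -1.0 to -0.87, and without the pair of deviating libraries it was -0.90 (adjusted p = 0.00156). With a term for Y-linked RNA Atp5s fell by 0.93 (adjusted p = 0.00230), and without those libraries by 0.91 (adjusted p = 0.00341). In WT lungs Atp5s stood at 6.91, 5.87 and 5.25 CPM in PBS and 4.71, 4.74 and 5.14 in LPS. These groups did not overlap either, but the difference of -0.31 did not pass the test (adjusted p = 0.153). The difference between the genotypes' responses was -0.61 ± 0.21, with an unadjusted p of 0.0134 and an adjusted p of 0.455 in edgeR, so it did not pass.

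**Figure D3:**
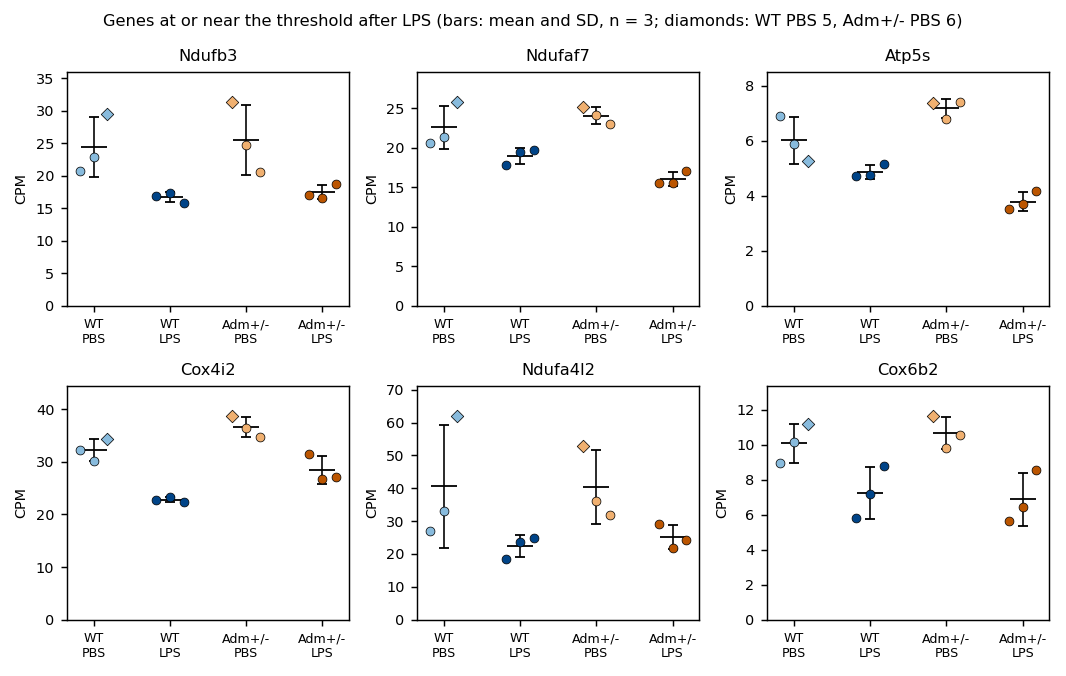
CPM of 6 members in each library, with points for single libraries, bars for the mean and SD of 3 lungs per group, and diamonds for WT PBS 5 and Adm+/- PBS 6. The LPS points lie below the PBS points of the same genotype in all 6 panels, and the diamonds are the highest PBS values of their groups in every panel but that of Atp5s.

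Complex IV was the complex with the alternative isoforms. Its 11 main subunits had 0 past the threshold in edgeR, with 2 at an unadjusted p below 0.05 in WT, both upward (18.2%, against 18.7% of all tested genes), and 0 in Adm+/- lungs, where 41.8% of all tested genes were in either direction. Their median log2 fold changes were 0.18 and 0.11. Of 9 alternative isoforms and paralogs 7 were tested, and 1 (14.3%) was past the threshold downward in each genotype, against 7.09% of all tested genes in WT and 12.2% in Adm+/- lungs. In WT 2 had an unadjusted p below 0.05 upward and 3 downward in edgeR (28.6% and 42.9%, against 18.7% and 18% of all tested genes). In Adm+/- lungs 0 did upward and 3 downward (42.9%), against 20.2% and 21.6%. The alternative isoforms and paralogs include Cox7a2l, a paralog of Cox7a2 that acts in the assembly of supercomplexes and is not restricted to a tissue. Cox7a2l stood at 78.5 to 123 CPM, with log2 differences of -0.10 in WT (adjusted p = 0.581) and -0.18 in Adm+/- lungs (adjusted p = 0.303). Cox4i2, the lung form of subunit 4, at chr2:152754173-152765037, stood at 32.3, 30.2 and 34.2 CPM in WT PBS and 22.7, 23.3 and 22.3 in WT LPS. The Adm+/- lungs had 38.6, 36.4 and 34.7 CPM in PBS and 31.5, 26.8 and 27.1 in LPS. The LPS values were below the PBS values in each genotype, and the Adm+/- LPS values lay above all WT LPS values. It fell by 0.50 in WT (SE 0.10, adjusted p = 0.00607), at the edge of the fold limit, and by 0.36 in Adm+/- lungs (SE 0.10, adjusted p = 0.0185). The WT adjusted p stayed below 0.05 without any single library, but the value was within the fold limit without WT PBS 5 (-0.46), WT LPS 11 (-0.49) or the 3 libraries with Y-linked RNA (-0.46), and in a fit of the 6 WT libraries alone the adjusted p was 0.0586. In Adm+/- lungs the adjusted p rose to 0.0595, 0.0749 and 0.0769 without Adm+/- PBS 6, Adm+/- LPS 2 and Adm+/- LPS 12.

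Ndufa4l2, a paralog of the complex IV subunit Ndufa4 that is induced by hypoxia, lies at chr10:127514967-127517154 and overlaps Shmt2 on the opposite strand. It stood at 27.0, 33 and 61.9 CPM in WT PBS and 18.6, 23.7 and 24.9 in WT LPS, and at 53.0, 36.1 and 31.8 CPM in Adm+/- PBS and 29.1, 21.9 and 24.3 in Adm+/- LPS. The groups did not overlap, but the largest values were those of WT PBS 5 and Adm+/- PBS 6. Its log2 fold change was the lowest of the module in WT (-0.86 ± 0.29, adjusted p = 0.0538) and was -0.68 ± 0.29 in Adm+/- lungs (adjusted p = 0.0926), so it did not pass in edgeR, whereas DESeq2 gave an adjusted p of 0.0204 in WT. The WT value was -0.43 without WT PBS 5, and the adjusted p was 0.0231 without WT PBS 3 and 0.0427 without Adm+/- PBS 6. In Adm+/- lungs the value was -0.44 without Adm+/- PBS 6, and the adjusted p was 0.0174 without WT PBS 5.

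Cox4i2 and Ndufa4l2 are both abundant in pericytes. A further 12 pericyte and smooth muscle markers summed to 1909 to 2699 CPM in WT PBS, 1625 to 2037 in WT LPS, 1979 to 2432 in Adm+/- PBS and 1589 to 1822 in Adm+/- LPS. Of these 12, 1 was past the threshold downward in WT (Notch3) and 0 in Adm+/- lungs by edgeR, and the unadjusted p was below 0.05 downward for 4 and 5 of them, against 2865 and 3427 of the 15885 tested genes. Their part in the values of these isoforms was not tested.

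Isoforms were also compared with their partners within a library, as the log2 ratio of counts, which is not corrected for length and is therefore read only between groups. Averaged over the genotypes, the ratio of Cox4i2 to Cox4i1 differed by -0.33 between LPS and PBS (exact permutation test within genotypes, two-sided p = 0.015) and, averaged over the treatments, by 0.28 between Adm+/- and WT lungs (exact permutation test within treatments, two-sided p = 0.015). For Ndufa4l2 to Ndufa4 the LPS difference was -1.02 (exact permutation test, two-sided p = 0.01), and without WT PBS 5 and Adm+/- PBS 6 it was -0.43. Over the 10 comparisons of 5 pairs, each of these exact permutation p-values became 0.05 after Benjamini-Hochberg adjustment, which is not below the threshold, and 0.005 was the smallest p the design allowed. The other 7 comparisons had adjusted exact permutation p-values from 0.1 to 0.97.

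Cox6b2, the testis form of subunit 6B, at chr7:4751792-4753094, stood in Adm+/- lungs at 11.6, 9.80 and 10.5 CPM in PBS and 5.65, 6.45 and 8.59 in LPS. The groups did not overlap, and it fell by 0.62 (SE 0.19, adjusted p = 0.0306). The adjusted p rose to 0.0885, 0.0682, 0.117 and 0.0919 when Adm+/- PBS 6, Adm+/- PBS 8, Adm+/- LPS 1 and Adm+/- LPS 2 were left out in turn, and it was 0.0632 without the pair of deviating libraries and 0.0560 with a term for Y-linked RNA. In WT lungs it stood at 8.93, 10.1 and 11.2 CPM in PBS and 5.79, 7.19 and 8.76 in LPS, again without overlap, with a difference of -0.48 that did not pass the test (adjusted p = 0.101). Its widely expressed partner Cox6b1 stayed between 84.5 and 105 CPM in all libraries.

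The isoforms of heart and skeletal muscle, Cox6a2, Cox7a1 and Cox8b, were weakly expressed. Cox6a2 stood at 3.61, 1.07 and 0.988 CPM in WT PBS and 4.65, 5.28 and 2.91 in WT LPS, and at 1.05, 2.5 and 2.23 CPM in Adm+/- PBS and 1.53, 2.60 and 2.14 in Adm+/- LPS. Its WT groups overlapped through WT PBS 3, and the log2 difference of 1.14 ± 0.48 did not pass the test (adjusted p = 0.107), although it was 2.05 with an adjusted p of 0.0112 without WT PBS 3. Cox6a2 overlaps Itgad, a leukocyte integrin gene, on the opposite strand, and the strand setting of the counting is not given in the sources used here, so shared reads cannot be told apart. Cox7a1 stood at 3.61, 2.18 and 3.83 CPM in WT PBS and 4.87, 5.32 and 4.46 in WT LPS, and at 2.0, 3.21 and 3.58 in Adm+/- PBS and 2.81, 2.98 and 3.14 in Adm+/- LPS. The WT groups did not overlap, but the difference of 0.61 ± 0.25 did not pass the test (adjusted p = 0.0993), and without the pair of deviating libraries it was 0.74 (adjusted p = 0.0402). Cox8b reached its highest value, 5.32 CPM, in WT LPS 10, and its log2 differences between LPS and PBS were 0.51 in WT (adjusted p = 0.378) and 0.35 in Adm+/- lungs (adjusted p = 0.569).

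A list of 22 skeletal muscle genes differed between these groups. It summed to 2388, 2641 and 1075 CPM in WT LPS and to 48.9 to 92.6 in the other 9 libraries, and 18 of its 20 tested genes were past the threshold upward in WT, Myh8 and Acta1 of the contractile apparatus being the most abundant, against 1 in Adm+/- lungs. Within WT LPS, replicate 11 had the lowest sum and also the lowest Cox6a2, Cox7a1 and Cox8b. Between genotypes in LPS, the log2 differences were -1.04 for Cox6a2, -0.72 for Cox7a1 and -0.84 for Cox8b, with edgeR adjusted p-values of 0.344, 0.180 and 0.383. A list of 14 cardiac muscle genes summed to 807, 330 and 851 CPM in WT PBS, 410, 875 and 596 in WT LPS, 243, 555 and 580 in Adm+/- PBS and 511, 587 and 603 in Adm+/- LPS. Of its 13 tested genes 1 was past the threshold upward in WT and 0 in Adm+/- lungs by edgeR, with 3 and 0 upward at an unadjusted p below 0.05. These were 7.69% and 23.1% of the list in WT, against 10.5% and 18.7% of all tested genes, and the shares of all tested genes in Adm+/- lungs were 12.8% and 20.2%. WT LPS 10 had the highest and Adm+/- PBS 6 the lowest value both of this sum and of Cox8b, which stood at 5.32 and 0.842 CPM there. Cox8b was also counted among the markers of brown fat. The other 11 brown fat genes summed to 115 CPM in WT PBS 5, 56.4 in Adm+/- PBS 6 and 54.6 to 77.1 in the other 10 libraries. The part of skeletal muscle, cardiac muscle or brown fat RNA in the values of the isoforms was not tested.

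**Figure D4:**
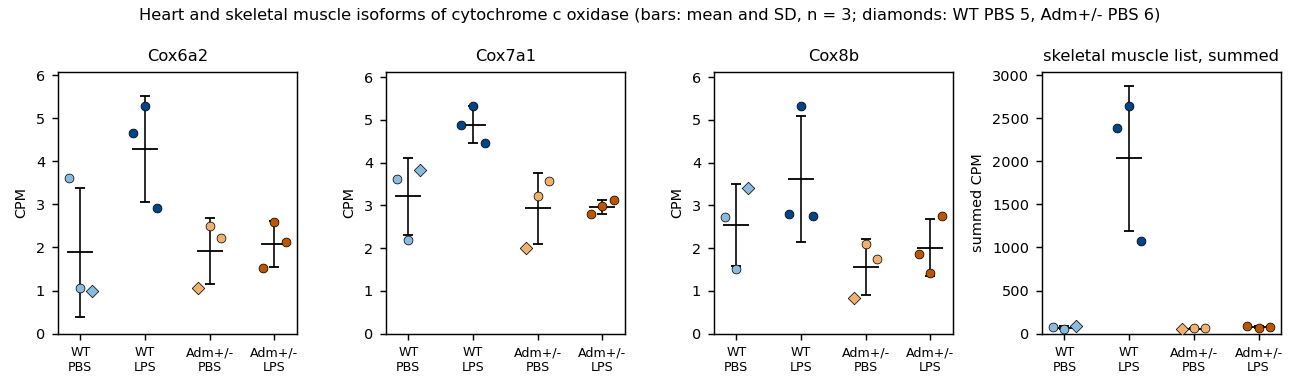
CPM of Cox6a2, Cox7a1 and Cox8b, and summed CPM of 22 skeletal muscle genes, in each library, with bars for the mean and SD of 3 lungs per group and diamonds for WT PBS 5 and Adm+/- PBS 6. The muscle list reached 1075 to 2641 in the 3 WT LPS lungs and at most 92.6 in the other 9, while the isoforms differ by a few CPM.

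Genotype was compared within each treatment to ask how loss of a copy of Adm bears on the module. In PBS, 0 of 91 members reached an adjusted p below 0.05 in edgeR, where 0% of all tested genes did, and 0 had an unadjusted p below 0.05, where 2.17% of all tested genes did. The genotypes' PBS values did not overlap for 2 members upward and 1 downward (2.47% and 2.51% of all tested genes). DESeq2 and limma-voom also called 0 members. Without WT PBS 5 and Adm+/- PBS 6 together, edgeR called 0% of all genes tested in PBS. The members' log2 differences ran from -0.67 (Cox8b) to 0.30, with a median of 0.06. In LPS, 0 members were past the threshold or at an adjusted p below 0.05 in edgeR, against 2.05% and 2.07% of all tested genes, and 4 had an unadjusted p below 0.05, against 14.3%. By direction, 0.327% of all tested genes were past the threshold upward and 1.72% downward, and 0.334% and 1.74% had an adjusted p below 0.05. Cox4i2 was the nearest, higher in Adm+/- LPS by 0.32 ± 0.10 (adjusted p = 0.133), and DESeq2 gave it an adjusted p of 0.0327, where it called 1.8% of all tested genes upward, whereas limma-voom called 0 members and 1.84% of all tested genes. With a term for Y-linked RNA the edgeR adjusted p of Cox4i2 was 0.231, and without the libraries that hold it 0.293. The LPS values of the genotypes did not overlap for 1 member upward and 13 downward, which is 1.1% and 14.3% of the members against 12.2% and 12.4% of all tested genes.

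For the difference of the LPS response between genotypes, edgeR, DESeq2 and limma-voom each called 0 members, where they called 0.145%, 1.08% and 0.0063% of all tested genes at an adjusted p below 0.05, and 1 member, Atp5s, had an unadjusted p below 0.05 in edgeR, where 7.85% of all tested genes did. The difference was negative for 70 of 91 members and for 8135 of the 15885 tested genes, with a median of -0.09 against -0.008 for all tested genes. This median was -0.17 when library totals were used with no scaling factor, a setting that moved the median of all tested genes to -0.09.

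WT PBS 5 and Adm+/- PBS 6 deviated from the other libraries of their groups for members in both directions, in shares near those of all tested genes. Against the mean of the other 2 libraries of its group, WT PBS 5 was more than 0.5 higher (log2) for 16 members and more than 0.5 lower for 19, or 17.6% and 20.9% of members against 20.0% and 22.1% of all tested genes, with member values from -1.56 (Uqcrb, a small subunit of complex III) to 1.39 (Cox6a1). Adm+/- PBS 6 was higher for 6 and lower for 12, or 6.59% and 13.2% of members against 9.07% and 11.3% of all tested genes, with member values from -1.11 (Cox8b) to 1.24 (Cox6a1). Measured the same way, against a mean that for them includes 1 of this pair, WT PBS 3 was higher for 11 and lower for 7, WT PBS 4 for 2 and 3, Adm+/- PBS 7 for 6 and 0, and Adm+/- PBS 8 for 0 and 3. In the same order, the shares of all tested genes were 12.8% and 10.7%, 8.74% and 7.61%, 6.45% and 2.72%, and 4.38% and 5.63%. In the LPS libraries at most 2 members lay beyond 0.5, where 3.29% to 7.73% of all tested genes were above it and 2.82% to 7.86% below. Cox6a1 stood at 285 and 267 CPM in the pair and at 88.1 to 129 in the other 10 libraries. Uqcrb, in the other direction, stood at 9.57 and 18.9 CPM in the pair and at 25.6 to 34.5 elsewhere. The 6 members above 0.5 in both were Cox6a1, Atp5e, Ndufa2, Ndufa4l2, Ndufa8 and Ndufb7, and the 10 below in both included Uqcrb, Ndufa4, Atp5g2 and Ndufb4, all named after their values were seen. Of all 15885 tested genes, 1029 were above and 1185 below in both.

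Across the 91 members the deviations of these libraries had a Pearson correlation of 0.793, against 0.454 across all 15885 tested genes. The Spearman correlation was 0.837 against 0.663. The sign was the same for 72 of 91 members and for 12654 of the 15885 tested genes. Genes of a library share its depth and base composition, so these are descriptions. The deviations moved with the GC content of the exons, with a Spearman correlation across members of 0.547 in WT PBS 5 and 0.453 in Adm+/- PBS 6, against 0.640 and 0.556 across all tested genes. Across members it ran from -0.511 to 0.311 in the other 10 libraries. In the LPS libraries, whose groups hold neither of the pair, it ran from -0.478 to 0.311. Members above in both had a median GC content of 56.0% and those below in both 48.4%, against 51.8% for all tested members. With an offset for gene length and GC content, the members at an adjusted p below 0.05 were 3 upward and 8 downward in WT and 1 upward and 15 downward in Adm+/- lungs, of which 6 downward in each genotype were past the fold limit. Under this setting 16.9% of all tested genes had an adjusted p below 0.05 upward and 12.9% downward in WT, and 20.5% and 19.3% in Adm+/- lungs, while 8.3% and 13.3% were past the threshold downward.

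**Figure D5:**
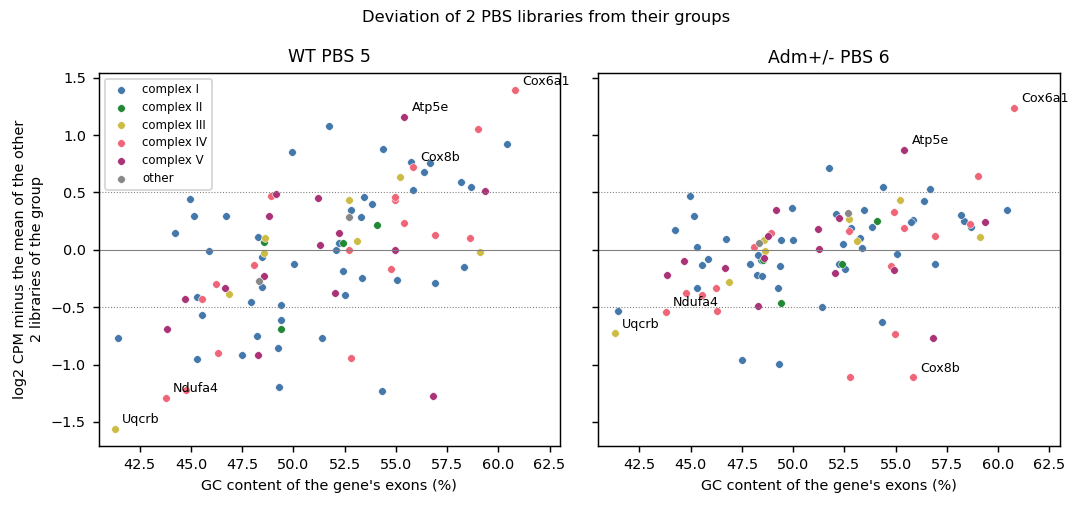
Deviation of each tested member in WT PBS 5 (left) and Adm+/- PBS 6 (right) from the mean of the other 2 libraries of its group (log2, vertical axis) against the GC content of its exons in percent (horizontal axis), colored by complex. Cox6a1, with a GC content of 60.8%, is at the top in both panels, and Uqcrb, with 41.3%, is the lowest in WT PBS 5.

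Of 11 tested mitochondrially encoded subunits 0 were past the threshold in either genotype by edgeR, where 17.6% of all tested genes were in WT and 25% in Adm+/- lungs. In each genotype 1 had an unadjusted p below 0.05 upward (9.09%), against 18.7% and 20.2% of all tested genes. The median log2 fold changes of these subunits were 0.64 in WT and 0.58 in Adm+/- lungs. Their sum, 1663 to 3227 CPM, rested on mt-Co1, mt-Nd5 and mt-Cytb, and mt-Co1 was 202 CPM in WT PBS 5 and 361 in Adm+/- PBS 6 against at least 627 elsewhere. Without this pair of libraries the medians were 0.25 and 0.28. By edgeR 0 were then past the threshold in WT, where 15.3% of all genes tested in that fit were, with 1 at an unadjusted p below 0.05. In Adm+/- lungs 2 of 11 were past it upward, against 12.7% of all genes tested in that fit. These were mt-Nd5 (0.56, adjusted p = 0.0283) and mt-Nd6 (1.25, adjusted p = 0.0310), subunits of complex I encoded on opposite strands, named after their values were seen. Among 43 tested assembly factors outside the rule, 0 were past the threshold in WT by edgeR, where 10.5% of all tested genes were past it upward and 7.09% downward, and 5 had an unadjusted p below 0.05, where 36.7% of all tested genes did. In Adm+/- lungs 3 of the 43, or 6.98%, were past the threshold downward, against 12.2% of all tested genes. These were named after their values were seen: Sdhaf4, for complex II (-0.78, adjusted p = 0.00510), Uqcc2, for complex III (-0.55, adjusted p = 0.0263), and Cox14, for complex IV (-0.72, adjusted p = 0.0498). The 17 enzymes of the tricarboxylic acid cycle had 0 past the threshold in either genotype by edgeR, with an unadjusted p below 0.05 for 2 downward in WT (11.8%, against 2865 of the 15885 tested genes) and for 1 upward and 2 downward in Adm+/- lungs (5.88% and 11.8%, against 20.2% and 21.6% of all tested genes). The 1 upward was Dlst, of the 2-oxoglutarate dehydrogenase complex, named after its values were seen, at 0.28 ± 0.08 (SE) with an adjusted p of 0.0213, short of the fold limit. For the difference of the LPS response between genotypes, 0 of the 43 assembly factors and 0 of the 17 enzymes had an adjusted p below 0.05 in edgeR. Of all tested genes 0.145% did, so these calls are not shown to be particular to Adm+/- lungs.

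Further lists held a few calls, and their genes were named after their values were seen. Of 10 tested genes of cytochrome c and other electron carriers, 1 (10%) was past the threshold upward in each genotype, against 10.5% of all tested genes in WT and 12.8% in Adm+/- lungs. It was Gpd2, the mitochondrial glycerol phosphate dehydrogenase, which rose by 0.68 ± 0.14 (SE) in WT (adjusted p = 0.00701) and 0.78 ± 0.14 in Adm+/- lungs (adjusted p = 0.00178). Of 9 tested uncoupling and carrier proteins, 1 (11.1%) was past it upward in each genotype, the inner membrane carrier Ucp2, with 0.57 ± 0.15 in WT (adjusted p = 0.0221) and 0.55 ± 0.15 in Adm+/- lungs (adjusted p = 0.0166). Of 12 hypoxia-linked genes, 1 was past it upward and 1 downward in WT, each 8.33% against 10.5% and 7.09%, and 2 upward and 1 downward in Adm+/- lungs, or 16.7% and 8.33% against 12.8% and 12.2% of all tested genes. Bnip3, a mitophagy receptor, rose in both (1.27 ± 0.22, adjusted p = 0.00277, and 1.11 ± 0.22, adjusted p = 0.00305), and Hif1a, a hypoxia-inducible transcription factor, rose by 1.26 ± 0.24 in Adm+/- lungs (adjusted p = 0.00244). Vegfa, the endothelial growth factor, fell in WT (-0.51 ± 0.13, adjusted p = 0.0203), and Car9, a carbonic anhydrase, fell in Adm+/- lungs (-0.82 ± 0.18, adjusted p = 0.00526). For the difference of the LPS response between genotypes, 0 of the 12 had an adjusted p below 0.05 in edgeR, where 0.145% of all tested genes did. The unadjusted p was below 0.05 upward for 0% and downward for 25% of them, against 3.67% and 4.18% of all tested genes. A call in 1 genotype is thus not shown to be particular to it.

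Ppargc1a, the coactivator that drives mitochondrial biogenesis, rose after LPS. It stood at 9.09, 6.70 and 6.12 CPM in WT PBS and 13.5, 13.7 and 10.7 in WT LPS, and at 4.0, 6.59 and 6.92 CPM in Adm+/- PBS and 14, 11.6 and 10.5 in Adm+/- LPS. All LPS values were above all PBS values, and the log2 fold change was 0.79 ± 0.23 in WT (adjusted p = 0.0297) and 1.04 ± 0.23 in Adm+/- lungs (adjusted p = 0.00545). The WT adjusted p was 0.0777, 0.0817, 0.106 and 0.0732 without WT PBS 4, WT PBS 5, WT LPS 9 and WT LPS 10, and 0.0719 without the 3 libraries with Y-linked RNA. Nrf1, Gabpa, Tfam and Esrra, further regulators of these genes, and Ppargc1b, a relative of Ppargc1a, did not pass the test in either genotype. In the whole list of 16 regulators, 2 were past the threshold upward in WT and 3 in Adm+/- lungs, or 12.5% and 18.8% against 10.5% and 12.8% of all tested genes, and 0 downward in either.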

How the data were processed

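Raw counts per gene were deposited by the authors for 12 whole lungs. Per the labels and the study's methods, rRNA-depleted directional libraries were trimmed with Trim Galore, aligned to mm10 with HISAT2 and counted on Gencode genes with featureCounts. The Gencode release and the strand setting are not given in the sources used here, and coordinates and exon lengths were taken from release M21. Total counts per library (22382535 to 38062873) set the counting precision, and none of 12 replicate pairs held identical values.

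The members and gene lists were chosen with earlier results of these data known. Protein-coding genes were filtered with filterByExpr, scaled by TMM and fitted over the 4 groups with 8 residual degrees of freedom in edgeR 4.0.16 (glmQLFit and glmQLFTest, R 4.3.3), with Benjamini-Hochberg adjustment over 15885 genes. The fit was tested on simulated counts for the size of the estimated fold changes and for false calls. The share of changed genes recovered was also computed but is not reported here, and 3 lungs per group limit power. The simulated counts did not carry the shift with GC content seen in the deviating libraries. CPM is counts scaled to the TMM library size. Isoform ratios used a pseudocount of 0.5 and exact permutation within strata. Genes named were Adm, the alternative isoforms and their partners, the core subunits, for each comparison the 3 members with the smallest p in each direction, members past the threshold in both genotypes, the highest level in each complex, the 3 most abundant genes of a discussed list and the regulators Ppargc1a, Ppargc1b, Nrf1, Gabpa, Tfam and Esrra. Alternatives were DESeq2 1.42.0, limma-voom (limma 3.58.1), glmTreat, other scalings and filters, a length and GC offset, all annotated genes, the 6 libraries of a contrast alone, leaving out libraries and, chosen after seeing the data, a term for Y-linked RNA.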

Additional observations from a re-analysis of the deposited data

How the results depend on the processing

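No paired analysis was possible because the replicate numbers in the labels are unique to each mouse, so the groups share none. Of the members past the threshold, Atp5s and Ndufaf7 in Adm+/- lungs were kept without any single library, while Ndufb3, Cox4i2 and Cox6b2 sat close to a limit. Members past the threshold downward in WT numbered 1 under RLE size factors, TMM without mitochondrially encoded genes, limma-voom, no filter on low counts, a mean of at least 1 CPM and all annotated genes, 0 under glmTreat and with the 6 libraries alone, and 6 under the length and GC offset. The shares of all genes tested past the threshold downward in these fits were 5.46% to 7.48%, 1.23% and 2.23%, and 8.3%. For members at an adjusted p below 0.05 in WT, the upward and downward counts were 3 and 8 under the offset, 3 and 4 under DESeq2, 0 and 1 with all annotated genes, and 0 and 0 with the 6 libraries alone, where 16.9% and 12.9%, 14.9% and 12.9%, 8.3% and 6.42%, and 5.16% and 2.24% of all genes tested in that setting were called. In Adm+/- lungs glmTreat left 1 past the threshold downward, against 3.77% of all tested genes, and the offset gave 1 upward and 15 downward at an adjusted p below 0.05, against 20.5% and 19.3% of all tested genes. Between genotypes in LPS, the offset and DESeq2 each gave 1 member upward (Cox4i2), or 1.1% of the members, against 1.32% and 1.8% of all tested genes. The median difference of the LPS response was -0.17 under library totals with no scaling. Without WT PBS 5 and Adm+/- PBS 6 together, 1 member was past the threshold upward and 0 downward in WT, 2 were upward at an adjusted p below 0.05, and 2 were past the threshold downward in Adm+/- lungs, where 9.9%, 5.41%, 12.4% and 11.6% of all tested genes were. In a pair of settings chosen after seeing the data, a term for Y-linked RNA gave 2 members upward at an adjusted p below 0.05 in WT (12.1% of all tested genes). Leaving out the 3 libraries with such RNA, which include the deviating WT PBS 5, gave 0 upward and 1 downward (9.8% and 6.65%) and 0 past the threshold downward (5.48%) in WT by edgeR. In Adm+/- lungs that fit gave 10 past the threshold downward (14.2%) and 19 at an adjusted p below 0.05 (18.4%).

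Leaving out 1 library at a time gave 0 to 4 members past the threshold upward and 0 to 3 downward in WT, 0 to 7 upward and 1 to 4 downward at an adjusted p below 0.05 in WT, and 2 to 6 past the threshold and 2 to 10 at an adjusted p below 0.05 downward in Adm+/- lungs. The shares of all tested genes in WT over these fits were 6.25% to 10.5% and 2.75% to 8.99% past the threshold, and 6.46% to 11.8% and 3.1% to 10.9% at an adjusted p below 0.05. In Adm+/- lungs the downward shares were 8.46% to 13.9% past the threshold and 9.49% to 20% at an adjusted p below 0.05. The highest WT counts came without WT PBS 3, equalled past the threshold downward without Adm+/- PBS 6, and the lowest downward past the threshold without WT PBS 5 or WT LPS 11, the highest Adm+/- counts without WT PBS 5 and the lowest without Adm+/- PBS 6 or Adm+/- LPS 2, where 20.0%, 10.4% and 11% of all tested genes had an adjusted p below 0.05 downward in Adm+/- lungs, against 15.4% with all libraries. The medians ran from -0.06 to 0.02 in WT, -0.13 to -0.06 in Adm+/- lungs, 0.02 to 0.09 between genotypes in PBS, -0.09 to -0.01 in LPS and -0.14 to -0.04 for the difference of the response. The log2 isoform ratios for LPS ran from -0.40 to -0.28 for Cox4i2, -1.27 to -0.63 for Ndufa4l2, 0.91 to 1.77 for Cox6a2, -0.05 to 0.36 for Cox7a1 and 0.26 to 0.62 for Cox8b. For genotype they ran from 0.21 to 0.32 for Cox4i2, -0.27 to 0.37 for Ndufa4l2, -0.86 to -0.01 for Cox6a2, -0.61 to -0.21 for Cox7a1 and -1.01 to -0.60 for Cox8b. Among single named genes, 43 values lost and 26 gained the threshold over all settings tried, of which 24 and 10 were from leaving out 1 library. The causes of these changes were not tested.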
